A study of Mus musculus with 3 samples.

Results

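Cell cycle exit in the c2c12 libraries was followed through 10 genes chosen by name, out of 23238 gene symbols in the count files. They are the Cip/Kip inhibitors Cdkn1a, Cdkn1b and Cdkn1c, the INK4 inhibitors Cdkn2b, Cdkn2c and Cdkn2d, the pocket proteins Rb1, Rbl1 and Rbl2, and the cyclin D3 gene Ccnd3. All 10 symbols were found in each file, and 9 of them were among the 13169 genes with a level of at least 1 CPM (counts per megacount of the library, after scaling) in at least 1 library. The exception was Cdkn2b. c2c12 is an immortalized mouse myoblast line that was grown in medium with 10% fetal bovine serum and then switched to induction medium with 2% horse serum, which starts differentiation into myotubes. The induction lasted 2 days on a tissue culture plate (TCP), on a hydrogel of 15% methacrylated gelatin (GelMA), or on GelMA-PSS. The last is a hydrogel of 15% methacrylated gelatin mixed with 1% poly(sodium 4-styrenesulfonate), a sulfonated polymer that mimics heparin. The 3 groups share the line, the media and the day of sampling, so that the labels give the substrate as the only difference. One library was sequenced per substrate, so the differences below are between single libraries, with no spread between cultures and no test.

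A myoblast has to leave the cell cycle for good before it fuses. Cyclin-dependent kinases (CDKs) drive the cycle by phosphorylating the pocket proteins, which otherwise hold E2F transcription factors in check and silence genes of DNA synthesis. INK4 proteins block CDK4 and CDK6, whereas Cip/Kip proteins act chiefly on CDK2 complexes. In muscle, Cdkn1a is induced along with myogenin as cells exit, Rb1 keeps myotube nuclei from returning to S phase, and Ccnd3 is the D cyclin that remains in differentiated cells. The comparisons below ask how the levels of these genes differed between substrates after the switch to induction medium.

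The promoters of 3 of the genes are shown. Those of Cdkn1a and Rbl1 hold letters that bear on the gene lists described below. Of the motifs named here, that of Cdkn2d holds only the GC box, which bears on none of the lists. For each promoter, 250 bases before and 50 after the start site were read from the RefSeq table on GRCm38.p6, 5′ to 3′ on the gene's strand. This was done for 11 promoters of 8 members. Rb1 and Cdkn1c had no entry. The motifs searched on both strands were the E2F letters TTTCGCGC, TTTGGCGC, TTTCCCGC and TTTGCCGC, the core letters of a p53 site, CATGNNNNNNCATG, the E boxes CAGCTG and CACCTG that myogenic factors bind, and the GC box GGGCGG. Capitals mark every match, and no 2 matches overlapped. The first pair belongs to Cdkn1a, whose upstream start lies at chr17:29090729-29091028 and whose downstream start lies at chr17:29093519-29093818, both on the plus strand. The other 2 lie on the minus strand, at chr2:157204485-157204784 for Rbl1 and at chr9:21291160-21291459 for Cdkn2d.
Cdkn1a upstream start: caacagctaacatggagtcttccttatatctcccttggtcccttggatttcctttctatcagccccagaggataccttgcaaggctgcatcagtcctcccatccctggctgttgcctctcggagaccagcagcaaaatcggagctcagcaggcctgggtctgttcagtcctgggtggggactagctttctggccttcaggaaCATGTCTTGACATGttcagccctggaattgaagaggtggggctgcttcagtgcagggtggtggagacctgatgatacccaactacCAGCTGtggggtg
Cdkn1a downstream start: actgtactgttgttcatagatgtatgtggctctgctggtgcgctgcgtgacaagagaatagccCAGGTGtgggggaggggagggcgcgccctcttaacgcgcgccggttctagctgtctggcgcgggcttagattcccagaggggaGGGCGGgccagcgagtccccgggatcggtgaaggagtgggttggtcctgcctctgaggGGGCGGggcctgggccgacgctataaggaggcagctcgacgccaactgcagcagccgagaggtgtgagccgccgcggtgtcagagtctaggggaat
Rbl1: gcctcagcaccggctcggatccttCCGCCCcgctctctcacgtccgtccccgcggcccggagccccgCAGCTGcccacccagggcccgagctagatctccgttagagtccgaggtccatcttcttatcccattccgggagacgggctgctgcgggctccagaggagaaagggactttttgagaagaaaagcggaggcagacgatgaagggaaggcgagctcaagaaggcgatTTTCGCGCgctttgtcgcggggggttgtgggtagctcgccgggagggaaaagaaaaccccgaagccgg
Cdkn2d: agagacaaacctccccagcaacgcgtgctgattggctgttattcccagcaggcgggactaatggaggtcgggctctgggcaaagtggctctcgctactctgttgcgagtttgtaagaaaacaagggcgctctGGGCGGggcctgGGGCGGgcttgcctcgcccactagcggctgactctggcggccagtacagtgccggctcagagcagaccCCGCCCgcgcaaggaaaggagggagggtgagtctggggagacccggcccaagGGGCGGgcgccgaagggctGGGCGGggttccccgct

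The upstream Cdkn1a window holds the p53 letters, with the first base 48 bases before the start, and 0.712% of the 32851 promoters in the table hold that motif. The E box CAGCTG lies 38 bases past the same start, and 16.3% of all promoters have these letters. Rbl1 is the only member with an E2F match, TTTCGCGC at 18 bases before the start. That sequence occurs in 0.323% of promoters, and any of the 4 E2F motifs in 2.26%. The Cdkn2d window has 5 GC boxes, a motif held by 35.7% of promoters and by 9 of the 11 member promoters. These matches are descriptions of letters, not of bound sites.

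Libraries differed in depth, with total counts of 119799095 (TCP), 87071144 (GelMA) and 192171443 (GelMA-PSS). All 8 myogenic markers, among them Myod1 and Myog, were at a CPM of 1 or more in every library, and their summed level was 18089, 12840 and 10170 CPM on TCP, GelMA and GelMA-PSS. Myh3 made up most of that descent, and without it the sum was 7907, 6485 and 7133 CPM. Adipocyte and endothelial markers never passed 1 CPM in every library, and neither did 3 of the 4 markers each for white blood cells, osteoblasts and epithelium. Among all genes tested, the log2 ratio of GelMA-PSS to GelMA ran with transcript length, with a Spearman's rho of -0.66 over genes that share the same libraries, against -0.50 for GelMA-PSS to TCP and 0.21 for GelMA to TCP. The differences of GelMA-PSS from the controls are therefore also given for the members and the gene lists after a smooth fit on transcript length and GC content was subtracted, levels and ratios not called corrected are as counted, and the part that RNA length played in a member's difference was not tested otherwise. Ratios were taken on log2(CPM + 1), a scale on which weakly expressed genes show less than their full fold, and bracketed intervals are 95% intervals that cover counting error only.

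On the log2(CPM + 1) scale, no member was past 2-fold in any comparison. Cdkn1c was past it against TCP with a pseudocount of 0.1 in place of 1, and Cdkn1c and Rb1 were with TPM without TMM factors. On the first scale, of the 9 members tested, 0 passed 2-fold between GelMA-PSS and GelMA, where 4.10% of all genes did. The count was also 0 between GelMA-PSS and TCP, where 6.85% of all genes passed, and between GelMA and TCP, where 1.00% passed. Against both controls in the same direction it was 0, beside 2.53% of all genes. At 1.5-fold, 3 of 9 members (33.3%) passed between GelMA-PSS and TCP, Cdkn2d on the higher side and Cdkn1c and Rb1 on the lower, against 24.7% of all genes. None passed 1.5-fold between GelMA-PSS and GelMA, beside 21.8% of all genes, between GelMA and TCP, beside 5.62%, or against both controls, beside 15.3%. These shares do not set the 9 genes apart from the rest of the transcriptome.

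The genes split evenly in direction. Cdkn1b, Cdkn2c, Cdkn2d and Ccnd3 were higher on GelMA-PSS than on both controls, which is 4 of 9 (44.4%) beside 45.3% of all genes. Cdkn1a, Cdkn1c, Rb1 and Rbl2 were lower than on both, again 4 of 9 beside 39.3% of all genes. Rbl1 lay between the control libraries. After correction for length and GC content, Rbl1 was above both controls and Ccnd3 lay between them. The split also depended on the scaling, since with library totals alone Ccnd3 was below both, and with TPM without TMM factors, which moved the median of all genes to -0.36 against GelMA and -0.31 against TCP, 1 member (Cdkn2d) was above both and 7 were below. Relative to that median, Cdkn1b, Cdkn2c and Cdkn2d were above both controls and Cdkn1a, Cdkn1c, Rb1 and Rbl2 below both, as on the CPM scale. The median log2 ratio of the 9 was -0.02 to GelMA and 0.01 to TCP, beside medians of 0.03 and 0.04 over all genes. In bulk RNA, fewer cells that express a gene and less of its RNA in each cell cannot be told apart.

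**Figure D1:**
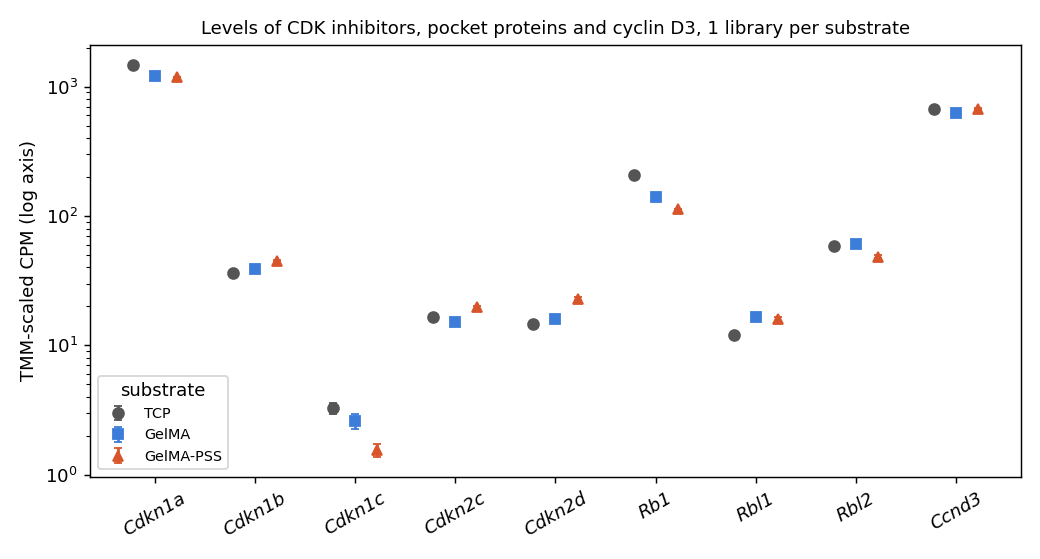
Level of each gene in the TCP, GelMA and GelMA-PSS libraries in TMM-scaled CPM on a log axis, with 1 point per library and bars for the 95% Wilson interval of counting error (mostly smaller than the points). Cdkn1a lies at 1186 to 1480 CPM and Cdkn1c at 1.55 to 3.28 CPM, and the 3 libraries differ less from each other than the genes do.

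Cdkn1a was the most abundant inhibitor by far. Its product p21 binds and blocks cyclin-CDK complexes and is a classical target of both p53 and MyoD. The gene lies on chromosome 17, 29090976 to 29100727, plus strand of GRCm38, and its transcript has 2080 bases in 3 exons. It stood at 1480 CPM on TCP (95% interval 1474 to 1487), 1204 CPM on GelMA (1197 to 1212) and 1186 CPM on GelMA-PSS (1181 to 1191). The TCP library was thus the high one, and the hydrogel libraries lay close together. The ratio of GelMA-PSS to GelMA was 0.985 (0.978 to 0.992), a difference of -1.50%, and that to TCP was 0.801 (0.796 to 0.806). GelMA itself was at 0.814 of TCP (0.807 to 0.820), so the substrates already differed without PSS by about as much, with a log2 ratio of -0.30 that was -0.26 after correction. After the fit on length and GC content, the log2 ratio to GelMA went from -0.02 to -0.17, and that to TCP from -0.32 to -0.42. Per length, Cdkn1a made up 96.4% of the summed level of the 6 inhibitors on TCP, 95.5% on GelMA and 94.2% on GelMA-PSS.

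Cdkn1b encodes p27, which holds quiescent cells in G0 and is removed by the Skp2 ubiquitin ligase when they re-enter the cycle. It lies on chromosome 6, 134920401 to 134925513, plus strand. Its level was 36.4 CPM on TCP, 39.1 CPM on GelMA and 45.0 CPM on GelMA-PSS, with the highest value on GelMA-PSS. The ratio of GelMA-PSS was 1.15 to GelMA (1.11 to 1.20) and 1.24 to TCP (1.19 to 1.28). Among all genes these log2 ratios of 0.20 and 0.30 stood at percentiles 64.2 and 71.4. With a long transcript of 4552 bases, Cdkn1b moved up under the correction, to 0.30 and 0.37.

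Cdkn1c encodes p57, an imprinted Cip/Kip inhibitor that takes part in muscle differentiation in the embryo. It was the weakest of the 9 genes and the one with the largest fold between libraries. The gene, on chromosome 7, 143458339 to 143461050, minus strand, had 399 counts on TCP, 235 on GelMA and 280 on GelMA-PSS. That is 3.28 CPM (2.97 to 3.61), 2.59 CPM (2.28 to 2.94) and 1.55 CPM (1.37 to 1.74), and the counting intervals of the 3 libraries did not overlap. GelMA-PSS was at 0.598 of GelMA (0.501 to 0.714) and 0.472 of TCP (0.403 to 0.551). On the log2(CPM + 1) scale the differences came to -0.49 and -0.75, and after correction to -0.64 and -0.85. Within a library, Cdkn1b per Cdkn1c, counted per length, was 4.61 on TCP, 6.27 on GelMA and 12.1 on GelMA-PSS.

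Among the INK4 genes, Cdkn2b was close to absent. It encodes p15, an inhibitor of CDK4 and CDK6 known as a target of TGF-beta signalling. The files gave 0 counts on TCP, 4 counts on GelMA and 0 on GelMA-PSS. A count of 0 allows a level of up to 0.0246 CPM on TCP and 0.0166 CPM on GelMA-PSS, and the 4 counts on GelMA stand for 0.0440 CPM with an exact interval of 0.0120 to 0.113 CPM. No fold was formed from such counts.

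Cdkn2c and Cdkn2d, which encode p18 and p19, were both expressed and both highest on GelMA-PSS. Cdkn2c (chromosome 4, 109660876 to 109667189, minus strand) was at 16.4 CPM on TCP, 15.3 CPM on GelMA and 19.6 CPM on GelMA-PSS. Its ratio was 1.29 to GelMA (1.21 to 1.37) and 1.19 to TCP (1.13 to 1.26). Its log2 ratios of 0.34 and 0.24 were nearly the same after correction, at 0.32 and 0.23.

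Cdkn2d (chromosome 9, 21288410 to 21291407, minus strand) was at 14.7 CPM on TCP, 15.9 CPM on GelMA and 23.0 CPM on GelMA-PSS. The ratio of 1.44 to GelMA (1.36 to 1.53) was the largest upward difference between the hydrogels among the 9 as counted, and the ratio to TCP was 1.57 (1.48 to 1.66). Its transcript is the shortest of the tested members, with 1423 bases, and genes of that length had a fitted log2 ratio of 0.38 to GelMA. Its own ratio of 0.50 dropped to 0.19 under the correction, below those of Cdkn2c (0.32) and Cdkn1b (0.30), and from 0.62 to 0.38 against TCP. Cdkn2d per Cdkn2c, by length, was 1.55 on TCP (1.45 to 1.65), 1.81 on GelMA (1.68 to 1.95) and 2.03 on GelMA-PSS (1.94 to 2.13). The transcripts differ in length, with 1423 and 2471 bases, and the step between the hydrogels was reversed after correction, where Cdkn2d (0.19) differed less than Cdkn2c (0.32).

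**Figure D2:**
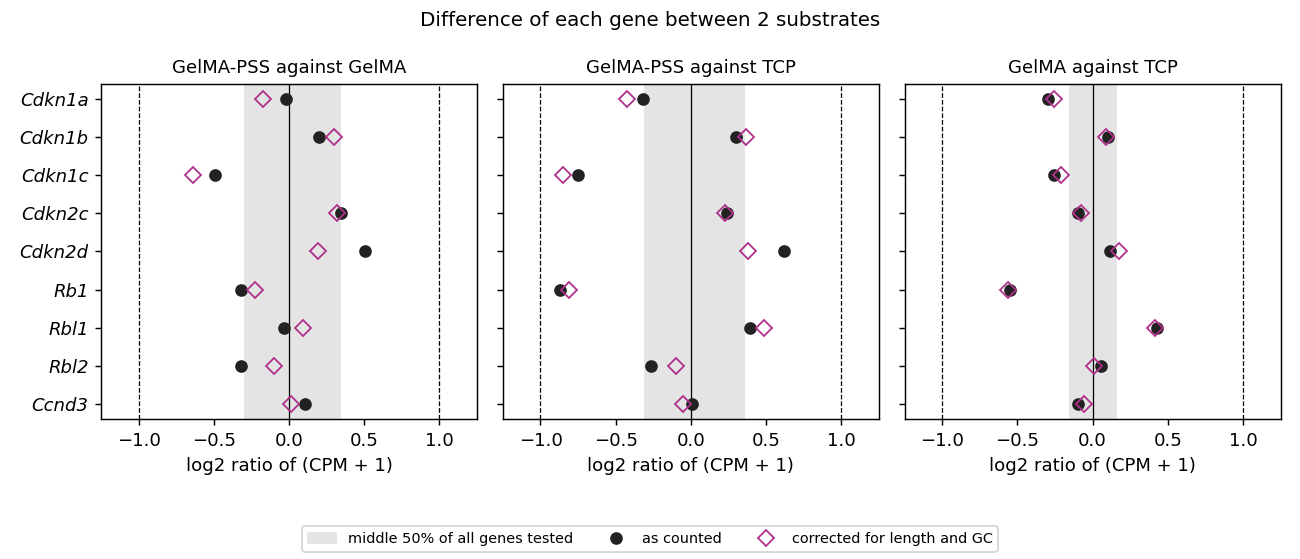
Log2 ratio of (CPM + 1) of each gene for GelMA-PSS against GelMA, GelMA-PSS against TCP and GelMA against TCP. Filled circles are the ratios as counted, open diamonds those after correction for length and GC content, the grey band spans the middle 50% of all genes tested and the dashed lines mark 2-fold. No circle or diamond reaches the dashed lines. Rb1 (-0.32, -0.87 and -0.55) and Cdkn1c (-0.49, -0.75 and -0.25) lie outside the band on the lower side in all 3 panels as counted.

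Of the pocket proteins, Rb1 differed most between substrates. The gene spans chromosome 14, 73183673 to 73325822, minus strand, with 27 exons in a transcript of 4656 bases. Its level was 207 CPM on TCP (204 to 209), 141 CPM on GelMA (138 to 143) and 113 CPM on GelMA-PSS (111 to 114). The 3 values descended from TCP through GelMA to GelMA-PSS. GelMA-PSS was at 0.545 of TCP (0.535 to 0.555) and 0.800 of GelMA (0.782 to 0.818), and GelMA was at 0.681 of TCP (0.667 to 0.696). On the CPM scale the larger step was that between the control substrates, where the log2 ratio of -0.55 (-0.56 corrected) stood at percentile 2.61 of all genes. With TPM the step between the hydrogels was the larger, at -0.77 against -0.50, and relative to the median of all genes on that scale these were -0.41 and -0.53. The step from GelMA to GelMA-PSS, at -0.32, stood at percentile 23.4 and came to -0.23 after correction, whereas the ratio to TCP remained at -0.81.

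Rbl1, which encodes p107 and is usually abundant in cycling cells, went the other way. It lies on chromosome 2, 157145893 to 157204534, minus strand. It was at 12.0 CPM on TCP (11.4 to 12.6), 16.5 CPM on GelMA (15.7 to 17.4) and 16.1 CPM on GelMA-PSS (15.5 to 16.7). TCP was the low library, and the intervals of the hydrogels overlapped. The ratio of GelMA-PSS to GelMA was 0.975 (0.915 to 1.04), and that to TCP was 1.34 (1.26 to 1.43). GelMA was at 1.38 of TCP (1.28 to 1.48), which stood at percentile 92.8 of all genes. The log2 ratios were -0.04 to GelMA, 0.40 to TCP and 0.43 for GelMA to TCP, and after correction 0.09, 0.49 and 0.41, so the sign against GelMA turned.

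Rbl2 encodes p130, the pocket protein typical of quiescent cells and a part of the DREAM complex with E2F4 and MuvB. On chromosome 8, 91070057 to 91123844, plus strand, it was at 58.6 CPM on TCP, 60.9 CPM on GelMA and 48.6 CPM on GelMA-PSS. The GelMA-PSS library was the low one, at 0.798 of GelMA (0.771 to 0.825) and 0.829 of TCP (0.804 to 0.856). The transcript has 4925 bases, and the fit alone gave -0.27 for genes of that length. After correction the log2 ratios of -0.32 and -0.27 were reduced to -0.10 and -0.10.

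The balance within the family shifted accordingly. Because the 3 transcripts are close in length (4656 to 4925 bases), ratios between them within a library are little touched by the trend with length. Rb1 per Rbl1 was 18.0 on TCP (17.1 to 19.0), 8.90 on GelMA (8.44 to 9.40) and 7.31 on GelMA-PSS (7.03 to 7.60). Rb1 per Rbl2 was 3.73 on TCP, and it was 2.45 on both hydrogels, with overlapping intervals of 2.37 to 2.53 and 2.39 to 2.52. Rb1 made up 75.6% of the family's summed level per length on TCP, 65.7% on GelMA and 64.8% on GelMA-PSS, while Rbl1 made up 4.20%, 7.39% and 8.86%. In the annotation, Rb1 overlaps Rcbtb2 and Lpar6, Rbl2 overlaps Aktip and Ccnd3 overlaps Bysl, each on the opposite strand. Whether strand was used in the counting is not stated in the sources used here, and the part of reads from these genes in the members' values was not tested.

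**Figure D3:**
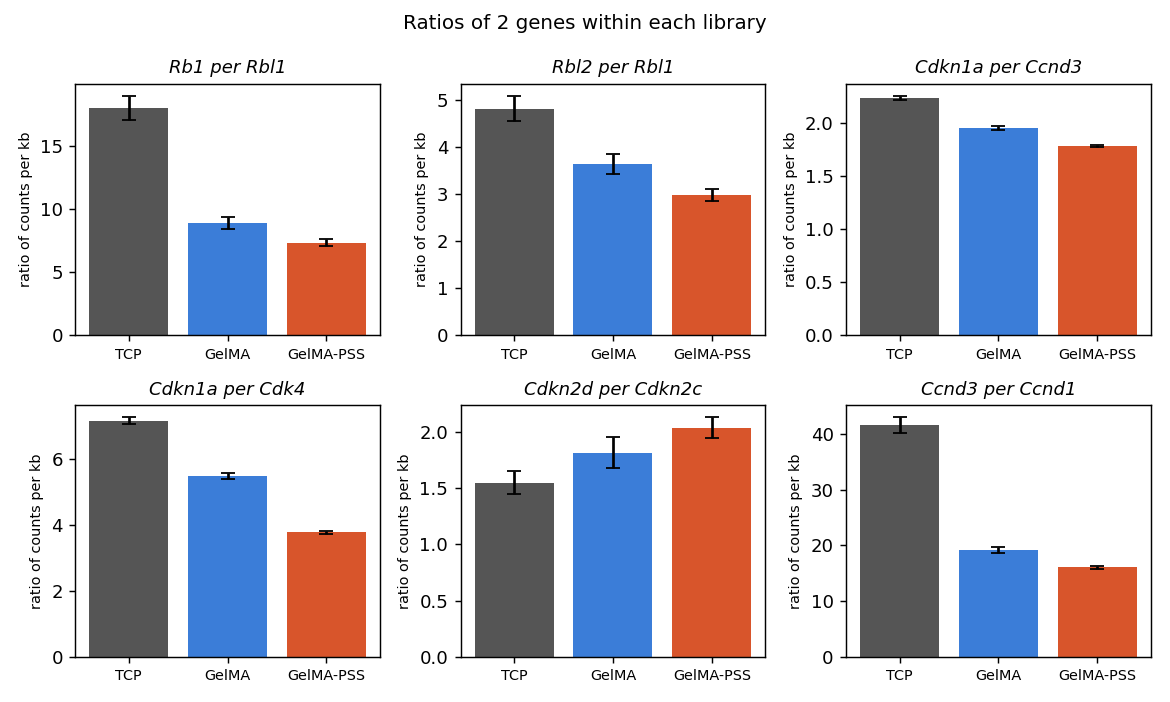
Ratios of counts per kb between 2 genes of the same library for TCP, GelMA and GelMA-PSS, with bars from 0 and error bars for the exact 95% interval of counting error. Rb1 per Rbl1 goes from 18.0 on TCP to 8.90 and 7.31 on the hydrogels, Cdkn1a per Cdk4 from 7.18 to 5.50 and 3.78, and Cdkn2d per Cdkn2c from 1.55 to 1.81 and 2.03, a last step that reverses after correction for length and GC content.

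Ccnd3 was nearly level across substrates. It lies on chromosome 17, 47505051 to 47599691, plus strand, and was at 672 CPM on TCP (667 to 677), 627 CPM on GelMA (622 to 632) and 676 CPM on GelMA-PSS (672 to 680). The TCP and GelMA-PSS intervals overlapped, with a ratio of 1.01 (0.997 to 1.01), and the ratio of GelMA-PSS to GelMA was 1.08 (1.07 to 1.09). The log2 ratios of 0.11 and 0.01 became 0.01 and -0.05 after correction. Ccnd3 carried 97.0% of the D cyclin level per length on TCP, 94.3% on GelMA and 93.6% on GelMA-PSS.

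The small remainder of the D cyclin pool differed. Ccnd1, the D cyclin of proliferating myoblasts, was at 28.6 CPM on TCP, 58.1 CPM on GelMA and 74.4 CPM on GelMA-PSS. Its log2 ratio to TCP was 1.35 on GelMA-PSS and 1.00 on GelMA, and the step between the hydrogels was 0.35. After correction these were 1.42, 0.99 and 0.43. Ccnd3 per Ccnd1 was accordingly 41.5 on TCP (40.1 to 43.0), 19.1 on GelMA (18.6 to 19.6) and 16.1 on GelMA-PSS (15.8 to 16.4). Ccnd2 stayed under 1% of the pool in each library, at 0.644%, 0.789% and 0.566%.

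The order of levels per transcript length was Cdkn1a, Ccnd3 and Rb1 on every substrate. On TCP these were 712, 318 and 44.4 CPM per kb, and on GelMA-PSS 570, 320 and 24.2 CPM per kb. The low end was Rbl1 and then Cdkn1c on each, at 3.31 and 0.819 CPM per kb on GelMA-PSS. In between, Rbl2 led Cdkn2d on TCP with 11.9 and 10.3 CPM per kb, followed by Cdkn1b. On GelMA-PSS the order of these was Cdkn2d, Cdkn1b and Rbl2 with 16.2, 9.89 and 9.86 CPM per kb, the last pair within counting error of each other. These levels are not corrected for the trend with length, and the transcripts have 1423, 4552 and 4925 bases. The log2 ratios of GelMA-PSS to TCP were 0.62, 0.30 and -0.27 as counted, and 0.38, 0.37 and -0.10 after correction.

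**Figure D4:**
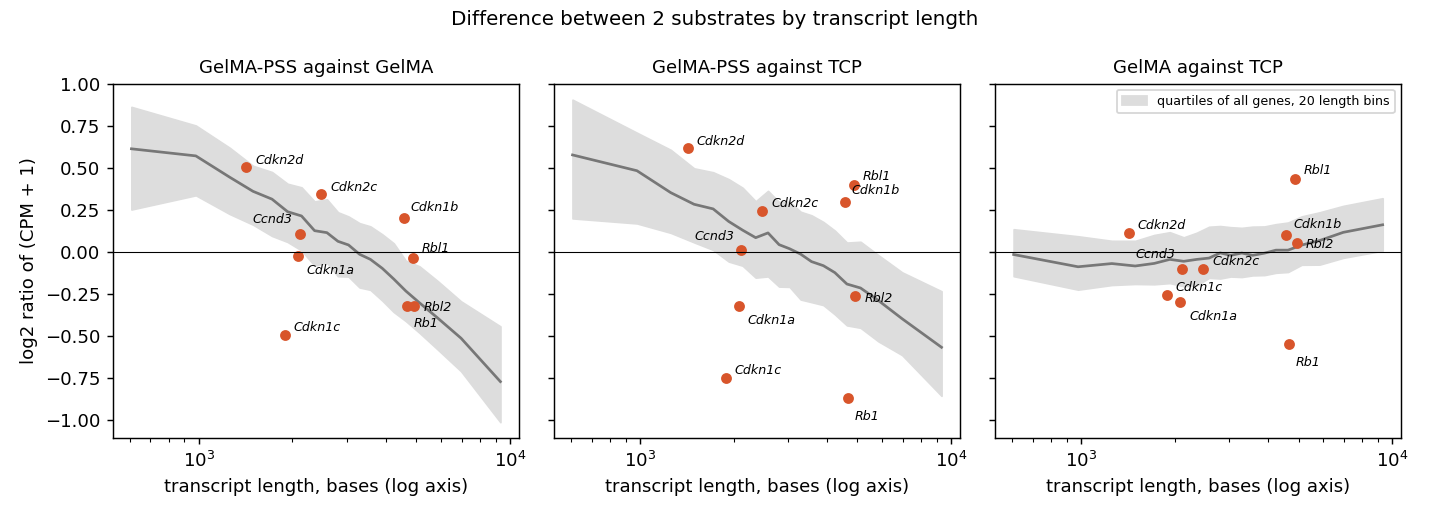
Log2 ratio of (CPM + 1) of each gene against its transcript length in bases (log axis), for the 3 pairs of libraries, over the quartiles and median of all genes in 20 length bins (grey). Against GelMA, Ccnd3 and Rbl2 lie near the grey line while Cdkn1c lies below it and Cdkn1b above it, and against TCP Rb1 lies below the lower quartile with -0.87.

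Cyclins, their kinases and the CDC25 phosphatases that activate the kinases had mostly higher CPM on GelMA-PSS. Of 17 genes in this list, which also holds the CDK-activating kinase (Cdk7, Ccnh and Mnat1), 13 were above both controls and 3 below. For all genes the shares were 45.3% and 39.3%. With TPM without TMM factors the counts were 7 and 7. The median log2 ratio was 0.37 to GelMA and 0.48 to TCP, beside 0.03 and 0.04 over all genes. After correction 11 were above and 3 below, beside 40.8% and 40.7% of all genes, and the medians were 0.27 and 0.47. The median to GelMA was -0.09 with TPM, which is 0.27 above the median of all genes on that scale. None was past 2-fold against GelMA, beside 4.10% of all genes, and 5 were past it against TCP, beside 6.85%. These 5 were Ccnd1 and, picked out after their values were seen, Ccnb1, Ccnb2, Cdk1 and Cdc25c, which serve entry into mitosis. After correction 3 of them were past 2-fold against TCP, beside 4.43% of all genes, and Ccnb1 (0.86) and Ccnb2 (0.80) were not. Cdk1 was at 31.4 CPM on TCP, 44.5 CPM on GelMA and 88.9 CPM on GelMA-PSS, and its log2 ratio to GelMA was 0.98, or 1.13 and past 2-fold after correction.

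Cdk4, the kinase that INK4 proteins bind, was at 203 CPM on TCP, 216 CPM on GelMA and 310 CPM on GelMA-PSS. Cdk6, its partner kinase, was at 5.03, 11.2 and 5.63 CPM on the same substrates and passed 2-fold between GelMA and TCP, with a log2 ratio of 1.01. Its transcript of 11525 bases is long, and after correction that ratio was 0.83, no longer past 2-fold, and its ratio of -0.88 to GelMA was -0.03. Cdk2, the main Cip/Kip target, was at 114, 87.0 and 85.0 CPM. Cdkn1a per Cdk2 therefore differed little, at 15.0, 16.0 and 16.2, whereas Cdkn1a per Cdk4 was 7.18 on TCP, 5.50 on GelMA and 3.78 on GelMA-PSS. The cyclin partners of CDK2 had their highest CPM on GelMA-PSS. Ccne1 was at 10.1, 11.5 and 18.0 CPM, Ccne2 at 10.8, 10.7 and 12.3 CPM, and Ccna2 at 31.2, 39.6 and 51.6 CPM. After correction, the log2 ratios to GelMA and TCP were 0.40 and 0.63 for Ccne1 and 0.27 and 0.63 for Ccna2, but -0.03 and -0.02 for Ccne2.

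On the CPM scale, a list of E2F, DP and MuvB genes, not all of whose products bind pocket proteins, had no common direction. Of its 16 genes, 4 were above both controls and 6 below, E2f6 and E2f8 among the latter, beside 45.3% and 39.3% of all genes. None was past 2-fold, beside 4.10% of all genes against GelMA and 6.85% against TCP. The medians were -0.02 to GelMA and -0.01 to TCP, or -0.13 and 0.01 after correction. The counts above and below were 1 and 9 with library totals alone, and 0 and 13 with TPM. Relative to the median of all genes under TPM, the medians of the list were -0.07 and -0.09. E2f1, an activator of S phase genes, was at 27.2, 34.4 and 37.1 CPM on TCP, GelMA and GelMA-PSS. The repressor E2f4 was nearly level at 91.7, 89.5 and 93.5 CPM, and E2f5 was at 9.54, 10.2 and 13.5 CPM. Their partner Tfdp1 was at 116, 114 and 112 CPM. The MuvB subunits Lin9 (7.16, 8.41 and 8.40 CPM) and Lin37 (18.9, 15.2 and 18.2 CPM) lay between the controls, and so did Mybl2, which joins MuvB in cycling cells, at 4.71, 7.24 and 7.01 CPM.

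E2F targets of the G1/S transition differed mainly between TCP and the hydrogels. Of 20 genes, among them the replicative helicase genes Mcm2 to Mcm7, 18 were higher on GelMA than on TCP, while 48.3% of all genes were. On GelMA-PSS, 15 were above both controls and 0 below both, beside 45.3% and 39.3% of all genes. The counts became 9 and 3 with library totals alone and 2 and 7 with TPM. The median log2 ratio was 0.52 to TCP, 0.33 for GelMA to TCP and 0.12 to GelMA, and after correction 0.50, 0.35 and 0.14. The median to GelMA changed sign with library totals alone (-0.02) and with TPM (-0.33), although it stayed 0.08 and 0.03 above the median of all genes on those scales. None of the 20 was past 2-fold in any pair. Of all genes, 4.10% passed between GelMA-PSS and GelMA, 6.85% between GelMA-PSS and TCP, and 1.00% between GelMA and TCP.

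Of 13 genes for ubiquitin ligase subunits linked to turnover of the inhibitors, 6 were above both controls and 5 below. These counts were close to the 45.3% and 39.3% of all genes. The medians were 0.07 to GelMA and 0.10 to TCP, or -0.00 and -0.03 after correction. With library totals alone and with TPM, these medians were negative. Skp2, which recognises p27, was at 9.79, 9.97 and 10.5 CPM on TCP, GelMA and GelMA-PSS. Its cofactor Cks1b was at 13.6, 18.2 and 33.7 CPM and was the only subunit past 2-fold, against TCP, where 6.85% of all genes passed. Its transcript has 849 bases, and its log2 ratio of 1.24 to TCP was 0.75 after correction, no longer past 2-fold.

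Genes of the p53 pathway, which controls Cdkn1a, were more often lower than higher. Of 22 genes, 4 were above both controls and 11 below, beside 45.3% and 39.3% of all genes, with medians of -0.01 to GelMA and -0.23 to TCP, and a median of -0.23 for GelMA to TCP. After correction the counts were 3 and 15, beside 40.8% and 40.7% of all genes, and the medians were -0.10, -0.30 and -0.17. The signs of these medians were the same with library totals alone, median-of-ratios size factors and TPM. The counts were 3 and 17 with library totals and 2 and 20 with TPM. Under TPM the median to GelMA was -0.45, which is -0.09 relative to the median of all genes on that scale. Trp53 itself was at 90.8, 101 and 110 CPM on TCP, GelMA and GelMA-PSS. Its ligase Mdm2 descended through 133, 105 and 89.3 CPM. Ccng1 was level at 146, 139 and 140 CPM, and the antiproliferative Btg2 was highest on GelMA-PSS with 28.5, 30.4 and 45.0 CPM. Sesn2, named after its values were seen, was the only gene of the list past 2-fold. It was lower against TCP, where 6.85% of all genes passed, with a log2 ratio of -1.06. After correction Sesn2 was at -0.94 and no longer past 2-fold. Mdm4, likewise named after the fact, was past 2-fold against GelMA after correction with -1.07, beside 1.87% of all genes.

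**Figure D5:**
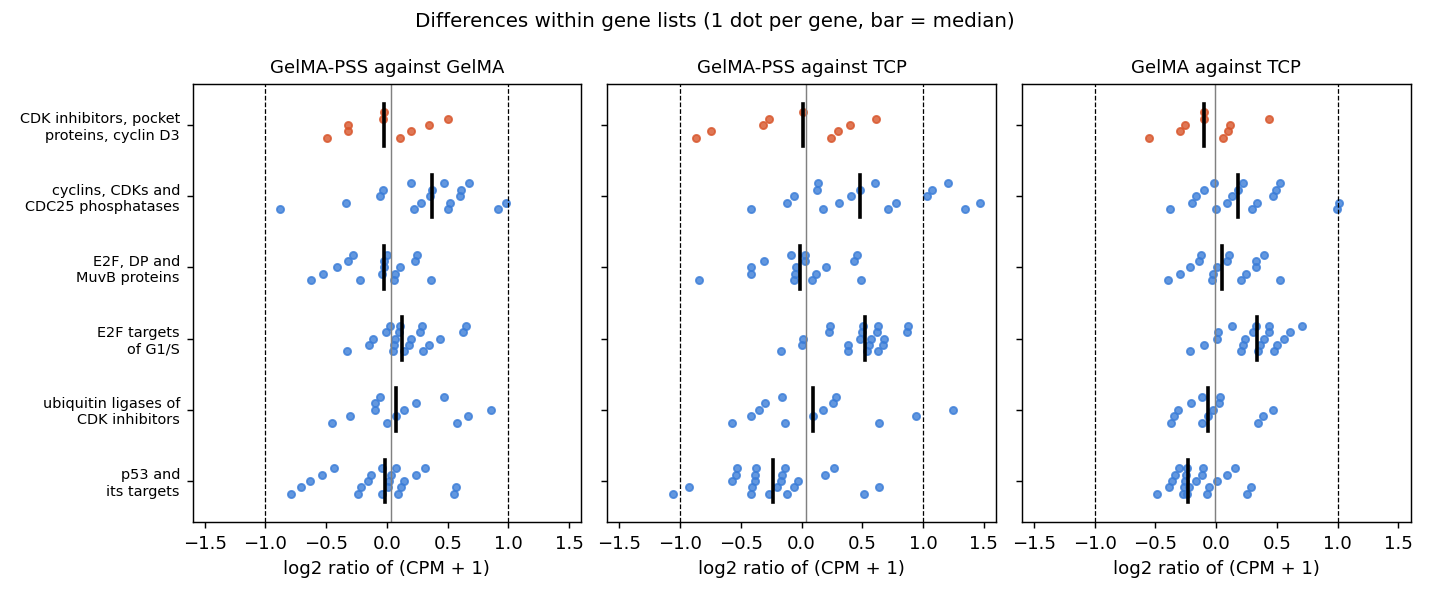
Log2 ratio of (CPM + 1) for every gene (dots) of the 9 cell cycle exit genes and of 5 lists of related genes in the 3 pairs of libraries, with a black bar for the list's median, a grey line for the median of all genes and dashed lines at 2-fold. The bar of the 9 genes lies near 0 in each panel, that of cyclins, CDKs and CDC25 phosphatases lies at 0.37 and 0.48 against GelMA and TCP, and that of the p53 list lies at -0.23 against TCP.

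The myogenic factors Myod1 and Myog, named above in connection with Cdkn1a, were measured in the same libraries. Myod1 was at 94.3 CPM on TCP, 105 CPM on GelMA and 119 CPM on GelMA-PSS, and Myog at 1100, 895 and 1037 CPM. As counted, the log2 ratios to GelMA and TCP were 0.19 and 0.34 for Myod1, 0.21 and -0.09 for Myog, and -0.02 and -0.32 for Cdkn1a. After correction they were 0.04 and 0.23 for Myod1, -0.09 and -0.32 for Myog, and -0.17 and -0.42 for Cdkn1a. Against GelMA, the signs of Myog and Cdkn1a were thus opposite as counted and the same after correction. With TPM without TMM factors Cdkn1a was at -0.49 to GelMA, and whether Myog kept its sign on that scale was not tested.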

How the data were processed

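RNA of c2c12 cells on TCP, GelMA and GelMA-PSS was sequenced, 1 library each, and groups were taken from the sample labels. The authors deposited raw read counts per gene symbol. The submitters' processing notes name TopHat, edgeR, mm10 and hg19 without roles, the labels name a SMARTER kit and the methods a TruSeq kit, and the counting tool is not given in the sources used here. The members and gene lists were chosen with earlier results of these data known.

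The files hold 23282 lines with 35 repeated symbols, which were summed to 23238. Counts were scaled to CPM with TMM factors of 1.016, 1.044 and 0.9427 (edgeR 4.0.16, R 4.3.3). The methods state FPKM, which the count files do not hold. Genes with a CPM of 1 in at least 1 library were kept (13169), ratios used log2(CPM + 1), and a gene was called past 2-fold or, as the second threshold, 1.5-fold, with no p-value. Levels carry Wilson intervals and ratios of 2 counts exact conditional binomial intervals, both at 95% and for counting error only (scipy 1.17.1). The floor was 3 counts per library. More symbols had a count of 2 than of 1 in each library, and intervals are too narrow should each mate of a read pair have been counted, on which the sources used here are silent.

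Coordinates, length and GC content came from GENCODE M21 on GRCm38 (1 transcript per gene, the longest coding sequence, basic set preferred). Of the symbols, 22197 matched as given and 669 by an older name. The correction subtracted successive loess fits on log2 length and GC content (span 0.3, statsmodels 0.14.6) for 13060 genes. The steps were tested on simulated counts. The genes named were all 10 members, list genes fixed by name and any other list gene past 2-fold against both controls (none). Others were named after their values were seen. Alternatives covered pseudocount, filter, scaling, threshold and the correction.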

Additional observations from a re-analysis of the deposited data

How the results depend on the processing

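Over 9 alternative settings, 20 of the 27 log2 ratios of the members kept 1 sign and 7 did not. Cdkn1b and Cdkn2c turned negative against both controls with TPM without TMM factors (-0.25 and -0.10 to GelMA, -0.10 and -0.15 to TCP). Rbl1 turned positive against GelMA after correction for length and GC content (0.09) or length alone (0.22), and Ccnd3 changed sign in 3 settings against GelMA and 4 against TCP. Relative to the median of all genes under TPM, Cdkn1b was at 0.11 and 0.21 and Cdkn2c at 0.26 and 0.16. Rb1, Cdkn1a, Cdkn1c and Rbl2 were below both controls in every setting that tested them, though Cdkn1c was not tested with a CPM of 5 or more.

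The count of members past 2-fold between GelMA-PSS and TCP, 0 of 9, was 1 with a pseudocount of 0.1 (Cdkn1c), 2 with TPM (Cdkn1c and Rb1) and 3 at 1.5-fold. The other counts past 2-fold remained at 0. Over all genes, 180 were higher and 153 lower past 2-fold against both controls. These numbers were 259 and 294 with a pseudocount of 0.1, 106 and 77 with 5, 97 and 261 with library totals alone, 30 and 626 with TPM, 57 and 82 after correction for length and GC content, 68 and 89 for length alone, and 1064 and 946 at 1.5-fold. The cause was not tested. No paired analysis was possible because each substrate has 1 library. Depth allows a level of up to 0.0246 CPM for a count of 0 on TCP, which limits statements on Cdkn2b.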

Other observations

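The neighbourhood of Cdkn2b was read beside it. Cdkn2a, which lies next to Cdkn2b on chromosome 4 and encodes a further INK4 protein and ARF, had 0 counts on TCP, 8 on GelMA and 0 on GelMA-PSS. Mtap, whose annotated end lies 125 kb before Cdkn2b, was expressed at 52.5, 60.4 and 81.3 CPM on TCP, GelMA and GelMA-PSS. Dmrta1, which starts 368 kb past the end of Cdkn2b, was at 1.00, 1.13 and 0.569 CPM. These genes were chosen after the counts of Cdkn2b were seen. Both INK4 genes of the locus thus had counts in the shallowest library alone, and whether the line carries the locus was not tested.

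Among myogenic markers, Myf5, which marks undifferentiated myoblasts, was at 13.9 CPM on TCP, 19.5 CPM on GelMA and 36.5 CPM on GelMA-PSS, with log2 ratios on GelMA-PSS of 0.87 to GelMA and 1.33 to TCP, or 0.53 and 1.07 after correction for length and GC content. Myh3, the embryonic myosin heavy chain gene, was at 10182, 6355 and 3037 CPM, with log2 ratios of -1.07 and -1.75, and -0.61 and -1.41 after the correction. Des and Ckm differed less, with log2 ratios to GelMA of 0.14 and -0.18, or 0.19 and -0.21 after it. Against TCP they were at -0.06 and -0.51, or -0.02 and -0.54 after the correction. Chrna1 and Tnnt1 were at 0.08 and 0.25 to GelMA, or 0.21 and -0.21 after the correction. To TCP these 2 were at -0.35 and -0.08, or -0.25 and -0.46 after the correction.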
